A study of Homo sapiens with 27 samples.

Results

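Endothelial cells grown for 48 h together with living mesenchymal stromal cells (MSCs) were set against endothelial cells grown for 48 h on the matrix that such MSCs had left behind. The comparison used 12 of the 27 libraries of the series, 6 for each way of exposure. They were chosen by their titles and replicate numbers, replicates 2 to 4 of each of 4 groups, with no measured value involved. The cells are EA.hy926, an unmodified hybrid line whose parents are endothelium of the umbilical vein and A549, a lung carcinoma line. The MSCs are ASC52telo, an adipose line immortalised with hTERT. Young MSCs were untreated, while senescent MSCs had been given 1.5 µg/mL of mitomycin C, which crosslinks DNA, over 18 h and were used 10 days later. Matrix (extracellular matrix, ECM) was freed of its cells in 5 min with 20 mM NH4OH and 0.5% Triton X-100. In co-culture, MSCs and endothelial cells were mixed 1:1. The 4 groups were co-culture with young MSCs, co-culture with senescent MSCs, ECM of young MSCs and ECM of senescent MSCs, with 3 libraries each. Control cells, with neither MSCs nor matrix (replicates 2 to 4), supply levels for reference and entered no test.

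Each arm has limits as a model. Both lines are single established lines, and the hybrid carries a carcinoma genome beside an endothelial one. No label tells whether MSCs were removed from the co-cultures before RNA was taken. The text on extraction speaks of RNA from MSCs, although the label for cell type gives endothelial cells. The labels also do not say that replicates were separate cultures, so p-values reflect only how much these libraries vary, perhaps for technical reasons. These are bulk libraries, in which fewer cells of a type and less RNA per cell cannot be told apart.

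Living stromal cells can act on endothelium through contact, through short-range ligands and through what they secrete, whereas a decellularised matrix offers adhesive proteins and whatever factors remain bound to it. Notch is the classic contact pathway: a ligand on one cell triggers cleavage of the receptor on its neighbour, and the freed receptor fragment joins the DNA-binding protein RBPJ to switch on targets such as HES1. Endothelial cells also meet support cells through PDGF-B, which recruits mural cells, through TGF-beta family signals, and through junctions built on VE-cadherin and its partner plakoglobin.

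Total counts ran from 66320519 to 111512357 over the 12 libraries. Markers of stromal cells took 0.138 to 0.201% of counts in the 6 co-culture libraries and 0.0662 to 0.104% in the 6 matrix libraries, against 0.0745 to 0.106% in control replicates 2 to 4. The endothelial list took 0.791 to 0.956%, 0.557 to 0.82% and 0.441 to 0.609% in the same order. PECAM1, CDH5, ENG, TIE1 and ERG were detected in every library, whereas CLDN5, EMCN and TAL1 averaged under 0.1 CPM (counts divided by the library's scaled total and brought to a common total). Of the 12 haematopoietic markers, 8 averaged under 0.1 CPM in co-culture, PTPRC, CD3E and SPI1 among them. TERT, which the MSC line carries as its hTERT transgene, was at 3.08 to 8.32 CPM in co-culture, 1.28 to 2.08 CPM on matrix and 1.6 to 1.98 CPM in control. It stood at 647 CPM in control replicate 1, a library outside the comparison in which stromal markers took 1.67% of counts. Ratios to that library are given below as a description. The libraries labelled replicate 1 go against their labels in stromal content: stromal markers took 0.878 and 0.96% of counts in the 2 on matrix and 0.0224% in young co-culture. Whether labels of replicate 1 libraries were exchanged was not tested, and each ratio to control replicate 1 and each value with replicate 1 libraries added takes the labels as deposited. The ECM library of young MSCs numbered 3 gave 11.7% of its counts to ribosomal protein genes, against 5.44 to 7.54% in the other 5 matrix libraries.

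Libraries of co-culture and matrix differed widely, and the labels do not tell whether both hold RNA of endothelial cells alone. Of 17982 genes tested, 5502 (30.6%) differed at an adjusted p under 0.05, 2839 (15.8%) higher in co-culture and 2663 (14.8%) lower. In what follows, genes higher in co-culture than on matrix are said to have risen, and genes lower in co-culture to have fallen. Past a fold change of 2 in size, a log2 fold change of 1, 942 rose (5.24%) and 711 fell (3.95%). The 6 libraries of one arm did not overlap the 6 of the other for 3181 genes (17.7%), 1661 higher (9.24%) and 1520 lower (8.45%). Scaling on the endothelial list in place of TMM moved the median of all genes from −0.02 to −0.30 on the log2 scale and turned the split into 1301 rises and 5877 falls. Counts of list members that rose or fell with TMM are to be read against 15.8% and 14.8% of all genes. The 9.24% higher and 8.45% lower without overlap are shares of all genes tested. Statements below on arms that did not overlap mostly concern genes already called, and choosing called genes favours such separation. Those counts therefore cannot be set against these 2 shares. For scale, 2839 genes rose and 1661 genes lay higher without overlap. List medians are to be read against the medians of all genes, −0.02 with TMM and −0.30 with the endothelial scaling. List medians with that scaling follow those with TMM, and counts with it are given for some lists only. Among genes named below, CCL2, CTNNB1, CXCR4, DUSP6, ERG, GCLC, GJA1, HSPA5, MAML3 and PDGFD rose with TMM and did not pass with that scaling, at adjusted p of 0.0612 (CXCR4) to 0.945 (CTNNB1). ABCC3, also named below, was no longer a called rise with that scaling either. Adding the replicate 1 libraries left 1531 calls, and 26 of the genes named below then changed sign.

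Co-culture and matrix were also compared within each MSC state. With young MSCs 3255 genes (18.1%) passed the threshold, 1685 higher and 1570 lower. With senescent MSCs 2563 (14.3%) passed, 1405 higher and 1158 lower. Of the 5502 genes called over both, 1949 passed in each state on its own with the same sign. Over all genes tested, the log2 fold changes of the 2 states had a Pearson correlation of 0.803, across genes, which are not independent replicates. The edgeR test of the difference between the states called 2 genes (0.0111%), CYP1A1 and C1QTNF1, with 678 at an unadjusted p under 0.05. This count rested on the method: it was 60 in DESeq2, 125 with no filter on low counts, 8 with replicate number as a block, 9 with control in the fit, 10 without ECM young replicate 3, 5 without ECM young replicate 4 and 0 with the replicate 1 libraries added.

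**Figure D1:**
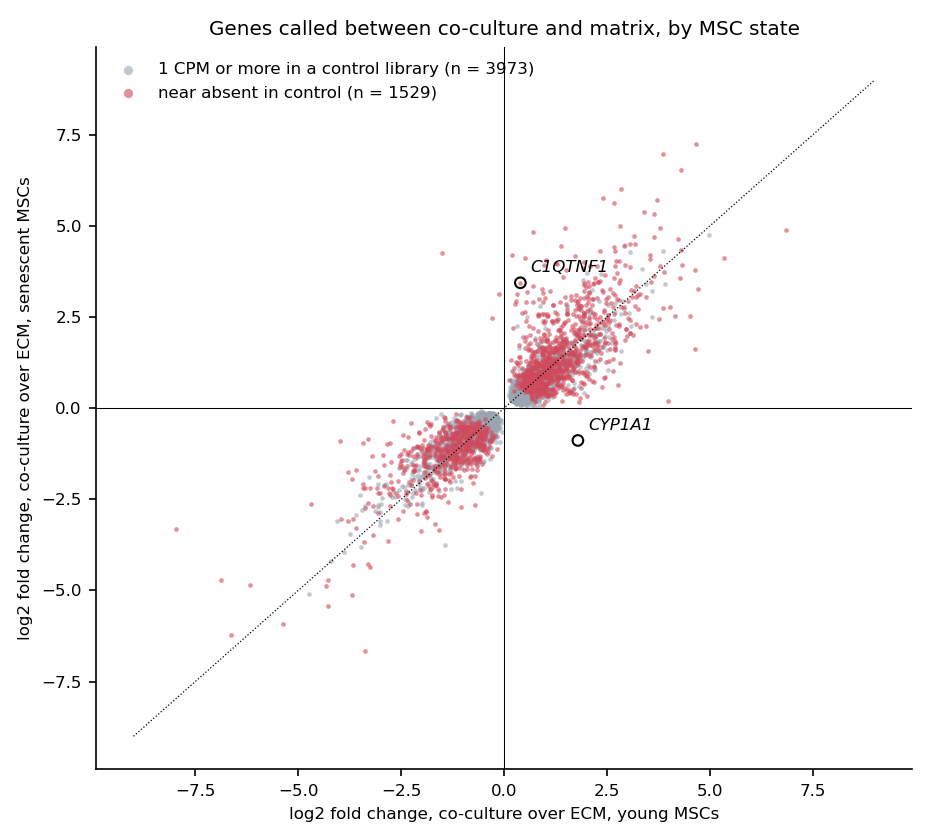
Log2 fold change of co-culture over ECM with young MSCs (x axis) against that with senescent MSCs (y axis), 1 point per gene called in the comparison over both states. Red points are genes under 1 CPM in each of control replicates 2 to 4, grey points all others, and the dotted line marks equal values. Most points lie at the lower left or the upper right, which choosing genes on the average of both states favours; the circled genes are those whose 2 values differed by the test, CYP1A1 not being among the called genes.

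Levels in unexposed cells place the difference, and nearness in the shares below is by log2 ratio. For gene lists nearness was taken on CPM itself, which favours the arm with the lower level. List counts of a control mean nearer to either arm therefore cannot be set against these shares. Counts above or below both arms do not rest on nearness, though those of lists also hold members near absent in control. Among called genes with at least 1 CPM in a control library, the control mean lay between both arms and nearer the matrix for 928 of 1890 rises (49.1%), and below both for 489 (25.9%). For 387 (20.5%) it lay between them and nearer co-culture, and for 86 (4.55%) above both. Of 2083 falls, 1039 (49.9%) had the control between both arms and nearer the matrix, and 583 (28%) between them and nearer co-culture. Another 311 (14.9%) had it above both and 150 (7.2%) below both.

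Rises were ranked among protein-coding genes present in control, with a mean of 5 CPM in an arm and arms that did not overlap. The 2 largest were transcription factors, FOXS1 and HES1, followed by COL1A1 and FOS. FOXS1 (forkhead box S1; ENSG00000179772.8, chromosome 20, 31844301 to 31845619 of GRCh38) was at 4.63 to 8.81 CPM (median 8.4) in co-culture and 0.153 to 0.366 CPM (median 0.248) on matrix. Its log2 fold change was 4.86 ± 0.20 (adjusted p = 1.84e-09), and the libraries of the arms did not overlap. The 3 control libraries held 1.35, 1.73 and 1.79 CPM, between the arms. Its difference was 2.06 and did not pass once the replicate 1 libraries were added (adjusted p = 0.254). HES1 (ENSG00000114315.4, chromosome 3, 194136145 to 194138732), the transcriptional repressor that Notch switches on, was at 50.2 to 82.1 CPM (median 67.2) in co-culture and 2.68 to 7.15 CPM (median 3.41) on matrix. It rose by 4.08 ± 0.22 (adjusted p = 1.63e-08), with control at 4.4, 4.92 and 6.21 CPM, inside the range of the matrix. FOS, the AP-1 subunit induced within minutes of a stimulus, was at 23.6 to 99.1 CPM (median 49) in co-culture and 2.3 to 8.03 CPM (median 3.59) on matrix, a difference of 3.66 ± 0.39 (adjusted p = 8.09e-06). Every co-culture library lay above every matrix library for these 3 genes.

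Among the rest of the 12 largest rises were genes of adhesion, contractility and metabolism. MYLK2, a myosin light chain kinase, was at 27.1 to 39.6 CPM (median 35.4) in co-culture and 2.42 to 4.17 CPM (median 3.06) on matrix (3.42 ± 0.15, adjusted p = 2.22e-09). MPZL2, an immunoglobulin-type adhesion protein, was at 4.8 to 8.57 CPM (median 6.56) in co-culture and 0.562 to 0.672 CPM (median 0.617) on matrix (3.40 ± 0.11, adjusted p = 2.24e-10). MMRN1, a multimerin of endothelial cells and platelets, was at 20.5 to 40.0 CPM (median 24.6) in co-culture and 2.6 to 4.16 CPM (median 3.44) on matrix (3.04 ± 0.20, adjusted p = 6.91e-08). None of these ranges touched, and the control mean lay between the arms for each. AMTN, which encodes the secreted protein amelotin, rose by 2.90 ± 0.23 (adjusted p = 3.92e-07), from 3.07 to 8.76 CPM on matrix to 29.8 to 62.8 CPM in co-culture. ALDH1A1, a retinaldehyde dehydrogenase, rose by 2.81 ± 0.14 (adjusted p = 4.91e-09), from 22.6 to 27.1 CPM to 128 to 236 CPM. The remaining 4 of the 12 largest rises, COL1A1, POSTN, COL1A2 and COL3A1, are matrix genes of stromal cells and are described with the collagens.

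The largest falls included several secreted proteins. SERPINB2 (ENSG00000197632.9, chromosome 18, 63871692 to 63903890), plasminogen activator inhibitor 2, was at 10.6 to 16.1 CPM (median 11.7) in co-culture and 301 to 459 CPM (median 395) on matrix. Its log2 fold change of −4.92 ± 0.15 (adjusted p = 2.21e-10) was the largest fall among the protein-coding genes that reached a mean of 5 CPM in an arm and were present in control, and control at 73, 93 and 105 CPM lay between the arms. WNT16 (ENSG00000002745.13, chromosome 7, 121325367 to 121341104), a Wnt ligand, was at 0.439 to 0.776 CPM (median 0.587) in co-culture and 10.2 to 11.8 CPM (median 11.1) on matrix (−4.21 ± 0.14, adjusted p = 2.24e-10). Both genes were thus above control on matrix and below it in co-culture. RELN, the secreted glycoprotein reelin, behaved otherwise: it was at 0.586 to 0.835 CPM (median 0.69) in co-culture and 6.29 to 10.4 CPM (median 8.83) on matrix (−3.64 ± 0.15, adjusted p = 1.84e-09), and control at 8.97 to 12.4 CPM lay near the matrix. FGF1, a fibroblast growth factor, followed the same order, with 3.62 to 5.69 CPM (median 5.04) in co-culture and 25.5 to 52.7 CPM (median 42.9) on matrix (−3.11 ± 0.17, adjusted p = 1.63e-08) and 28.5 to 44.3 CPM in control.

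Further falls joined inflammatory, hormonal and protease genes. IL1RL1, the receptor of interleukin-33, was at 7.52 to 18.9 CPM (median 10.8) in co-culture and 75 to 116 CPM (median 89) on matrix (−3.03 ± 0.17, adjusted p = 2.14e-08). STC1, a calcium-regulating glycoprotein hormone, was at 37.1 to 93.6 CPM (median 56.7) in co-culture and 281 to 521 CPM (median 442) on matrix (−2.94 ± 0.22, adjusted p = 2.94e-07). MMP1, interstitial collagenase, was at 902 to 1356 CPM (median 1164) in co-culture and 6016 to 7399.9 CPM (median 6444) on matrix (−2.53 ± 0.11, adjusted p = 2.02e-09). In all 3 the ranges were apart and control lay between them. AREG, an EGF receptor ligand, fell by 3.27 on the log2 scale and is given with its family. LCE1F, a gene of the cornified envelope, HKDC1, a hexokinase family gene, BCL2A1, an inhibitor of apoptosis, and LYPD5 completed the 12. Their log2 fold changes were −2.98 ± 0.35, −2.80 ± 0.13, −2.56 ± 0.27 and −2.50 ± 0.19. BCL2A1 and LYPD5 did not pass once the replicate 1 libraries were added, at −1.09 and −1.42 (adjusted p = 0.375 and 0.115). LYPD5 had 1.66 to 2 CPM in control, within the 1.09 to 2.03 CPM of co-culture, and 5.82 to 10.7 CPM on matrix.

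**Figure D2:**
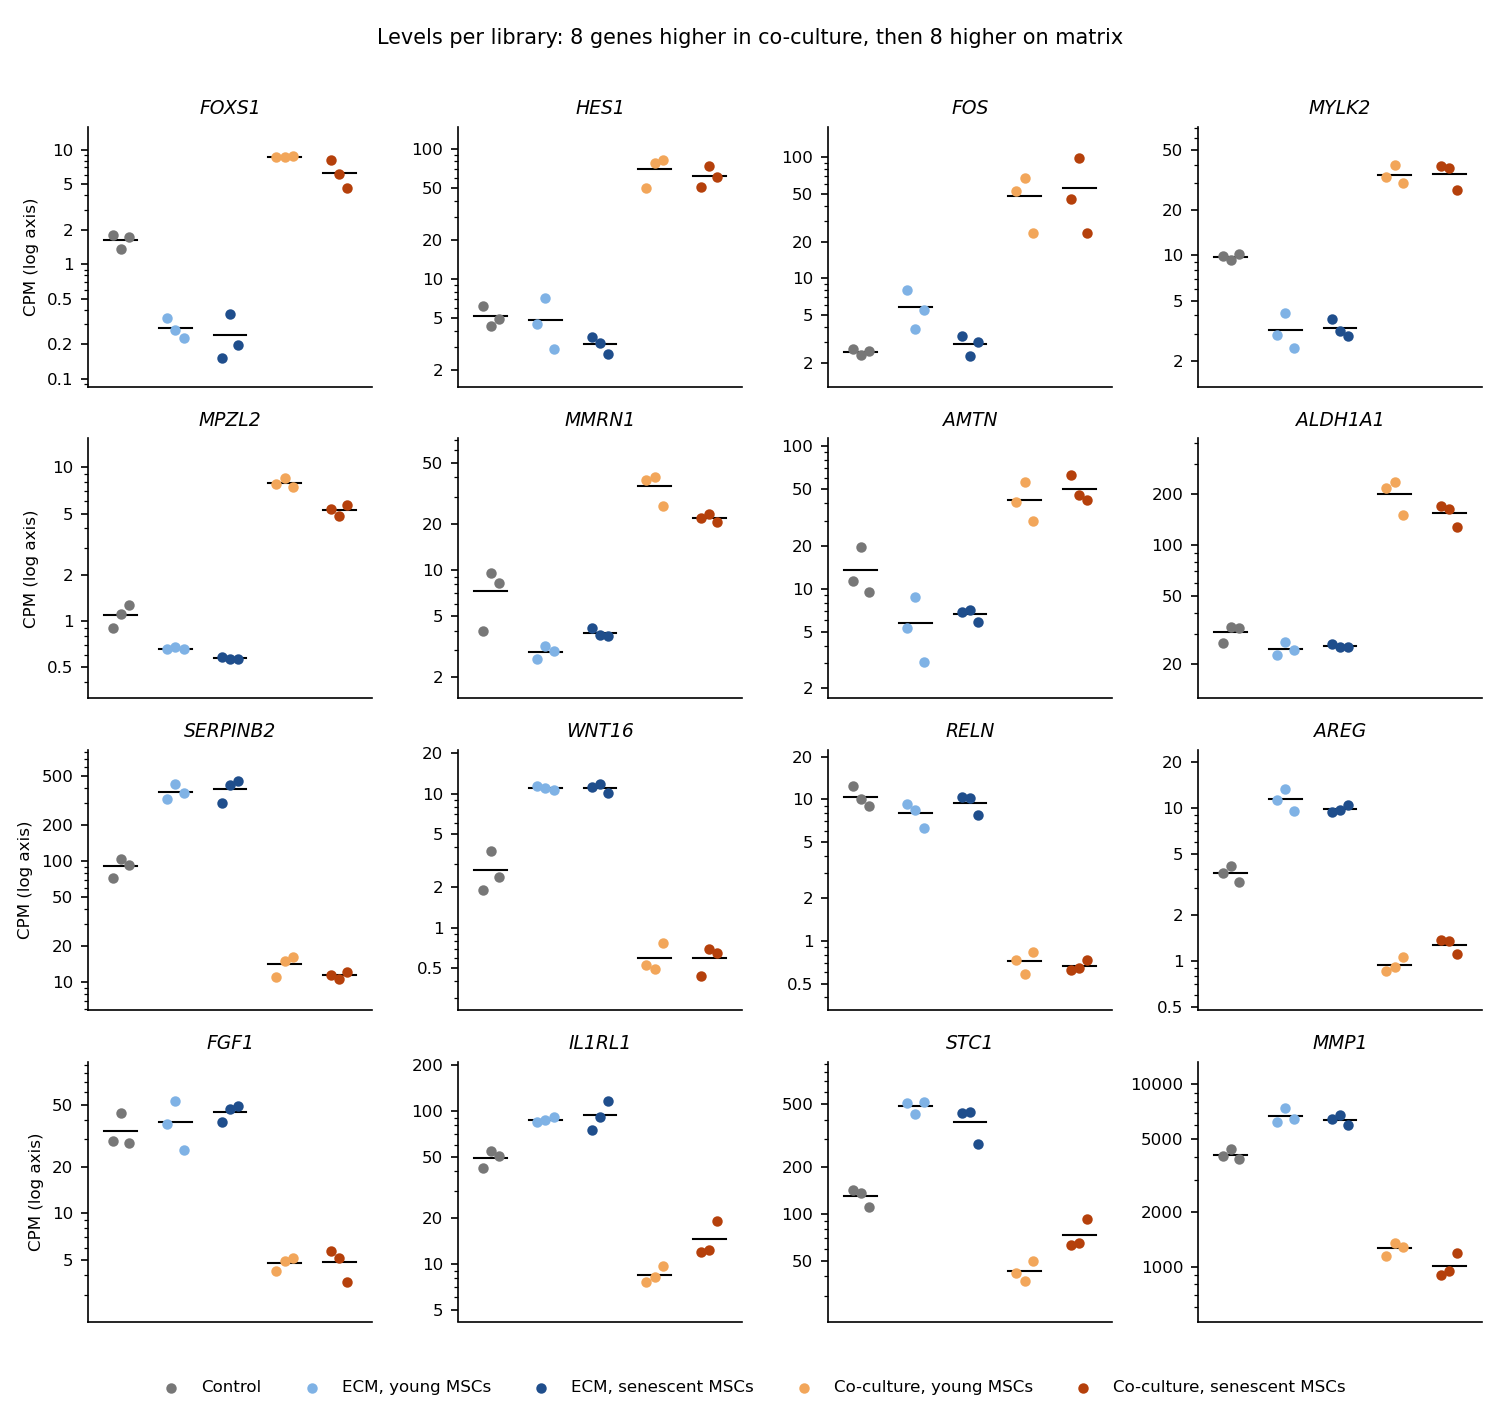
Level of 16 leading genes in each library, in CPM on a log axis, by group; points are replicates 2 to 4 and bars the arithmetic mean of 3. In the upper 8 panels both co-culture groups lie above both matrix groups, and in the lower 8 below them, with HES1 at 50.2 CPM or more in co-culture and 7.15 CPM or less on matrix.

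In the Notch pathway the rise of HES1 was accompanied by only part of the list. Of 31 genes listed 27 were tested, 10 rose and 1 fell (37% and 3.7%, against 15.8% and 14.8% of all genes), with a median log2 fold change of 0.27 against −0.02 for all genes. With the endothelial scaling the median was −0.02, with 7 rises and 4 falls against a median of −0.30 for all genes. Among the ligands, DLL4, the tip-cell ligand of sprouting endothelium, rose by 1.91 ± 0.18 (adjusted p = 3e-06), from 0.443 to 0.822 CPM to 1.87 to 3.5 CPM. The ligands JAG1 and JAG2 did not pass the threshold, at −0.28 ± 0.19 and −0.14 ± 0.18. Among the receptors, NOTCH1 was at 0.27 ± 0.25 and NOTCH2 at −0.25 ± 0.25, neither past the threshold. NOTCH3, a receptor of mural cells that was under 1 CPM in control, rose by 3.00 ± 0.38 (adjusted p = 3.82e-05) to 0.542 to 3.8 CPM, and stood at 135 CPM in the stromal-rich control replicate 1. Its value turned to −4.25 with the replicate 1 libraries added.

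Modifiers and targets rose to different extents. LFNG, the glycosyltransferase lunatic fringe that tunes the receptors, was at 14.8 to 22.3 CPM (median 17.9) in co-culture and 7.54 to 9.97 CPM (median 8.03) on matrix (1.12 ± 0.11, adjusted p = 4.78e-06). NRARP, a feedback inhibitor that is itself a Notch target, was at 4.47 to 6.08 CPM (median 5.21) in co-culture and 2.3 to 3.37 CPM (median 2.95) on matrix (0.85 ± 0.12, adjusted p = 1e-04). For both, all 6 co-culture libraries lay above all 6 matrix libraries. The targets HEY1 and HES4 did not pass the threshold, at 0.28 ± 0.13 and 0.39 ± 0.24, and neither did HEY2 at 0.19 ± 0.27. RBPJ, the DNA-binding partner of the receptors, was at −0.03 ± 0.0955. The coactivators MAML2 and MAML3 rose by 0.88 ± 0.21 and 0.60 ± 0.18, with overlapping libraries, and NUMB, an inhibitor, fell by 0.37 ± 0.0977. HES1 was at 19 CPM in control replicate 1, and its mean in co-culture was 3.57 times that, both taken relative to the library total without TMM.

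The 250 bases before the start of HES1 hold the letters that RBPJ is known to bind. The motif searched was GTGGGAA on either strand, shown in capitals, in RefSeq windows of GRCh38.p14. One match was found, starting 85 bases before the gene start (chr3:194135898-194136147, plus strand). Among all 27305 such windows 5.46% held the motif. Of the 27 tested Notch genes 23 had a window, and 3 of these held a match, HES1, HES4 and HEY2.
HES1: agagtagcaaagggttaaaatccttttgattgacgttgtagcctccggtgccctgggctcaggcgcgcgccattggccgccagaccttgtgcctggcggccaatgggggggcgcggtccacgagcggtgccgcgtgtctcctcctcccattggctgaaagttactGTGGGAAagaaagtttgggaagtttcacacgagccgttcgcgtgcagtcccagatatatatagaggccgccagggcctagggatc
Of the 10 Notch genes that rose 9 had a window and 1 held the motif, and the single match among the risers was HES1.

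Ligands, receptors and partners of the EGF receptor family moved in both directions. Of 12 tested 5 fell and 4 rose, with a median of −0.36 (−0.63 with the endothelial scaling, with 4 rises and 6 falls). AREG was at 0.858 to 1.37 CPM (median 1.08) in co-culture and 9.44 to 13.2 CPM (median 10.1) on matrix (−3.27 ± 0.14, adjusted p = 2.22e-09), and control lay between at 3.28, 3.76 and 4.13 CPM. ERRFI1, an intracellular brake on the receptor induced by its activity, was at 21.8 to 31 CPM (median 24.7) in co-culture and 88.9 to 97.1 CPM (median 90.9) on matrix (−1.86 ± 0.0893, adjusted p = 4.94e-09). The arms did not overlap in either gene. NRG2, a ligand of the ERBB receptors, fell by 2.03 ± 0.16 (adjusted p = 5.25e-07). NRG1 fell by 0.80 ± 0.10 (adjusted p = 3.52e-05), and HBEGF, the heparin-binding ligand, fell by 0.63 ± 0.0754 (adjusted p = 2.08e-05). TGFA was the ligand present in control that rose, from 11.9 to 14.9 CPM to 19.7 to 23.6 CPM (0.74 ± 0.0766, adjusted p = 5.2e-06). EREG, EPGN and ERBB4, all under 1 CPM in control, also rose, with co-culture maxima of 2.60 CPM for EREG and under 0.4 CPM for the others. EREG and EPGN turned to −4.35 and −4.17 with the replicate 1 libraries added. Of the receptors, EGFR and ERBB2 did not pass the threshold, at −0.26 ± 0.20 and 0.32 ± 0.14.

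Immediate early genes and feedback inhibitors of MAP kinase signalling split. Of 29 tested 10 rose and 9 fell, and the median was 0.12. Among the risers were AP-1 and zinc finger factors. JUNB, an AP-1 subunit, was at 59.9 to 92.9 CPM (median 73.4) in co-culture and 24.8 to 31.7 CPM (median 26.8) on matrix (1.43 ± 0.11, adjusted p = 4.5e-07). EGR1, a zinc finger factor, rose by 1.35 ± 0.20 (adjusted p = 0.000134), FOSB by 2.68 ± 0.49 (adjusted p = 0.000816) and DUSP1, a MAP kinase phosphatase, by 0.95 ± 0.0966 (adjusted p = 4.53e-06). JUN, another AP-1 subunit, did not pass, at 0.24 ± 0.11. For 9 of the 10 risers the control mean lay below both arms. Among the fallers were another AP-1 gene and feedback genes. FOSL1, the AP-1 subunit Fra-1, was at 139 to 189 CPM (median 162) in co-culture and 417 to 587 CPM (median 536) on matrix (−1.65 ± 0.11, adjusted p = 7.56e-08). SPRY2, an inhibitor of receptor tyrosine kinase signalling, was at 33.2 to 39.7 CPM (median 36.5) in co-culture and 98.4 to 124 CPM (median 118) on matrix (−1.63 ± 0.0925, adjusted p = 2.49e-08). SPRY4 fell by 1.50 ± 0.19 (adjusted p = 3.05e-05) and DUSP5, a phosphatase specific for ERK, fell by 0.83 ± 0.12 (adjusted p = 9.77e-05). DUSP6 went against these, at 0.33 ± 0.0999 (adjusted p = 0.0226) with overlapping libraries. With the endothelial scaling the list had 8 rises, 13 falls and a median of −0.15.

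Many markers of endothelium rose, adhesion genes among them. Of 29 endothelial identity genes tested 16 rose and 3 fell, and the median was 0.51 (0.23 with the endothelial scaling, with 14 rises and 7 falls). That scaling sets the total of this same list equal in all libraries, so it cannot check the list as a whole. PECAM1, the adhesion receptor CD31, was at 1206 to 1386 CPM (median 1279) in co-culture and 454 to 657 CPM (median 503) on matrix (1.31 ± 0.0985, adjusted p = 2.83e-07). CDH5 (ENSG00000179776.19, chromosome 16, 66366622 to 66404786), VE-cadherin, was at 616 to 842 CPM (median 730.1) in co-culture and 160.1 to 286 CPM (median 272) on matrix (1.58 ± 0.15, adjusted p = 1.93e-06). The co-culture libraries lay wholly above matrix and control for both genes. STAB1, a scavenger receptor, rose by 1.98 ± 0.20 (adjusted p = 5.63e-06), VWF, the von Willebrand factor, by 1.47 ± 0.21 (adjusted p = 9.29e-05), and ROBO4, a guidance receptor of vessels, by 1.12 ± 0.15 (adjusted p = 4.43e-05). The lineage factors FLI1, ERG and SOX18 rose by 0.85 ± 0.0665, 0.51 ± 0.0917 and 0.82 ± 0.17. All 16 risers stood higher in co-culture than in control replicate 1, where the endothelial list took 0.371% of counts. For 14 of the 16 the arms did not overlap. NOS3 and THBD belong to this list too and were among the 3 that fell. Their values are given with the flow-responsive genes. Genes that did not pass included TIE1 at 0.21 ± 0.13, EGFL7 at 0.27 ± 0.11 and PROCR at −0.02 ± 0.11.

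Among 28 junction genes tested 14 rose and 4 fell, with a median of 0.30 (0.03 with the endothelial scaling, with 7 rises and 8 falls). JUP (ENSG00000173801.17, chromosome 17, 41754604 to 41786931), plakoglobin, which links cadherins to the cytoskeleton at adherens junctions and desmosomes, was at 121 to 191 CPM (median 143) in co-culture and 11 to 26.3 CPM (median 23.9) on matrix. Its log2 fold change was 2.81 ± 0.19 (adjusted p = 1.16e-07), and control lay at 18.8, 31.3 and 34.6 CPM, overlapping the matrix. PCDH1, a protocadherin, was at 145 to 222 CPM (median 181) in co-culture and 40.0 to 54.4 CPM (median 49.9) on matrix (1.90 ± 0.11, adjusted p = 3.09e-08). GJA1, the gap junction protein connexin 43, rose by 0.38 ± 0.0842 (adjusted p = 0.00339), ESAM by 0.53 ± 0.0825 (adjusted p = 0.00022) and CTNNB1, beta-catenin, by 0.29 ± 0.0778 (adjusted p = 0.0107). Of these 5 genes, none had overlapping arms. CLDN1, a tight junction protein, went down, at 10.3 to 12.6 CPM (median 12) in co-culture and 28.2 to 42.3 CPM (median 35.9) on matrix (−1.61 ± 0.10, adjusted p = 7.82e-08). The desmosomal plakophilins PKP3 and PKP2 fell too, with −0.46 ± 0.0967 and −0.48 ± 0.12. DSP, desmoplakin, and CDH11, a stromal cadherin, rose from under 1 CPM in control and are described with the genes near absent there.

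Of 9 flow-responsive and CCM (cerebral cavernous malformation) genes tested 4 fell and 0 rose, with a median of −0.22 (−0.53 with the endothelial scaling). NOS3, endothelial nitric oxide synthase, was at 239.6 to 533 CPM (median 420.2) in co-culture and 941 to 1866 CPM (median 1566) on matrix (−1.86 ± 0.22, adjusted p = 1.61e-05). THBD, the anticoagulant receptor thrombomodulin, was at 123 to 206 CPM (median 184) in co-culture and 511 to 1015 CPM (median 779) on matrix (−2.10 ± 0.18, adjusted p = 9.03e-07). Control held 320.2, 405 and 648 CPM of NOS3 and 134, 255 and 363 CPM of THBD, below the matrix in both. For THBD 2 of the 3 control libraries lay above the range of co-culture. KLF2, a transcription factor that flow induces, fell by 0.68 ± 0.17 (adjusted p = 0.00646) with overlapping libraries, and its relative KLF4 did not pass, at 0.12 ± 0.15.

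Other vasoactive and coagulation genes moved in both directions, 12 up and 6 down of 24 tested (median 0.28; 0.01 with the endothelial scaling). EDN1, which encodes the vasoconstrictor endothelin-1, was at 266 to 352 CPM (median 306) in co-culture and 49.4 to 75.3 CPM (median 68.4) on matrix (2.22 ± 0.12, adjusted p = 1.2e-08), with control between the arms at 112, 120.5 and 125 CPM. F2R and F2RL1, protease-activated receptors, rose by 1.33 ± 0.12 (adjusted p = 1.19e-06) and 1.45 ± 0.0988 (adjusted p = 1.16e-07). ADM, the vasodilator peptide adrenomedullin, rose by 1.21 ± 0.0893 (adjusted p = 2.49e-07), and PTGIS, prostacyclin synthase, by 1.93 ± 0.23 (adjusted p = 1.86e-05). The libraries of the arms were apart for all 5 of these genes. In the opposite direction, PLAT, tissue plasminogen activator, was at 59.7 to 79.8 CPM (median 64.4) in co-culture and 128 to 253 CPM (median 192) on matrix (−1.50 ± 0.16, adjusted p = 6.98e-06), and ANXA2, which binds it at the cell surface, fell by 1.07 ± 0.13 (adjusted p = 1.81e-05).

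**Figure D3:**
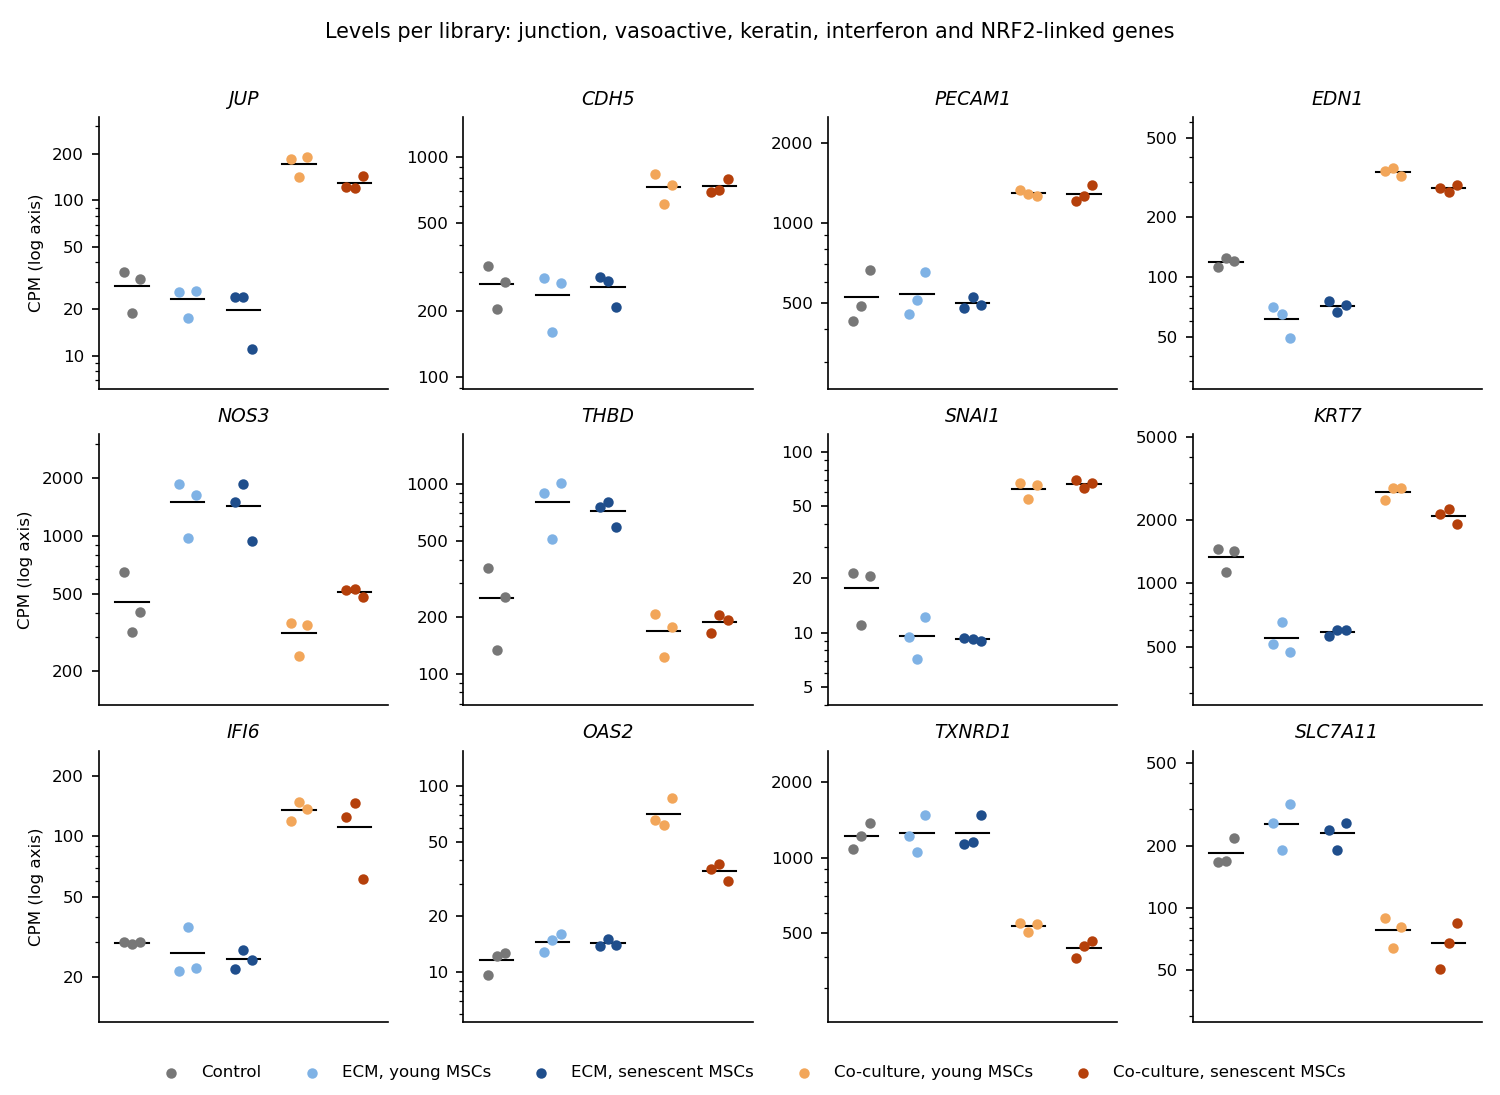
Level of 12 genes in each library, in CPM on a log axis, by group; points are replicates 2 to 4 and bars the arithmetic mean of 3. JUP, CDH5, PECAM1, EDN1, SNAI1, KRT7, IFI6 and OAS2 lie higher in both co-culture groups, and NOS3, THBD, TXNRD1 and SLC7A11 higher in both matrix groups; control lies below the matrix for NOS3 and THBD and beside it for TXNRD1.

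Adhesion to matrix, contractile and mechanical genes gave mixed lists. Of 32 integrin and focal adhesion genes 12 rose and 5 fell, with a median of 0.10 that became −0.16 with the endothelial scaling. ITGAV, the alpha-v integrin, was at 156 to 229 CPM (median 186) in co-culture and 60.0 to 109 CPM (median 89.8) on matrix (1.11 ± 0.12, adjusted p = 8.63e-06). NEDD9, a scaffold of focal adhesions, was at 14.4 to 18.7 CPM (median 16.3) in co-culture and 5.35 to 6.76 CPM (median 6.11) on matrix (1.42 ± 0.10, adjusted p = 2.49e-07), and TLN2, a talin that links integrins to actin, went down, at 1.5 to 2.7 CPM (median 2.24) in co-culture and 4.54 to 6.33 CPM (median 5.02) on matrix (−1.25 ± 0.11, adjusted p = 1.1e-06). The 3 genes had arms that were apart. ITGA11, a collagen receptor of stromal cells, rose by 2.06 ± 0.18 (adjusted p = 1.35e-06), at 0.0398 of control replicate 1, and turned to −2.06 with the replicate 1 libraries added. Of 21 targets and partners of YAP and TEAD 8 rose and 4 fell (median 0.09; −0.18 with the endothelial scaling, with 6 rises and 9 falls). The falls numbered 8 without ECM young replicate 3, 7 with replicate number as a block and 6 without co-culture young replicate 2. CCN1, a matricellular target, was at 578 to 749.9 CPM (median 642) in co-culture and 229 to 369 CPM (median 297) on matrix (1.14 ± 0.13, adjusted p = 1.05e-05), whereas CCN3 was at 3.75 to 5.84 CPM (median 4.38) in co-culture and 16.9 to 24.4 CPM (median 21) on matrix (−2.17 ± 0.13, adjusted p = 4.41e-08) and CCN2 did not pass, at 0.09 ± 0.13. Of 15 smooth muscle and contractile genes 10 rose and 1 fell (median 0.95; 0.65 with the endothelial scaling and −0.65 with the replicate 1 libraries added). MYL9, a myosin light chain, was at 5.85 to 19.5 CPM (median 8.8) in co-culture and 1.08 to 2.19 CPM (median 1.51) on matrix (2.69 ± 0.27, adjusted p = 4.65e-06) and TAGLN, transgelin, at 9.09 to 21.4 CPM (median 12.3) in co-culture and 2.06 to 3.81 CPM (median 3.03) on matrix (2.16 ± 0.22, adjusted p = 4.87e-06), with co-culture means 0.0114 and 0.0123 of control replicate 1. Both turned, to −3.75 and −3.47, with the replicate 1 libraries added. MCAM, an adhesion receptor of endothelium and pericytes, rose by 1.48 ± 0.14 (adjusted p = 2.16e-06), at 1.06 times that library, and ACTA2, smooth muscle actin, did not pass, at 0.21 ± 0.18.

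Keratins, which this hybrid line expresses, also rose. KRT7 was at 1924 to 2852 CPM (median 2369.8) in co-culture and 473 to 656 CPM (median 581) on matrix (2.08 ± 0.12, adjusted p = 2.19e-08), with control between at 1128, 1427 and 1451 CPM. KRT80 rose by 1.43 ± 0.12 (adjusted p = 5.97e-07), and KRT8 and KRT18, whose reads can be shared with near-identical copies, by 1.61 ± 0.11 (adjusted p = 1.35e-07) and 1.10 ± 0.10 (adjusted p = 1.76e-06). The arms were apart in each of these 4 genes. Of 11 epithelial genes tested 6 rose and 1 fell, with a median of 1.10 (0.81 with the endothelial scaling). The list's share of counts was 0.353 to 0.493% in co-culture, 0.113 to 0.132% on matrix and 0.218 to 0.265% in control. CDH1, GRHL2 and ESRP1, which define epithelium, averaged under 0.1 CPM over co-culture, matrix and control.

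Ligands and receptors that endothelial cells use toward neighbouring cells rose as well. PDGFB, the ligand that recruits mural cells, was at 28.8 to 65 CPM (median 41.2) in co-culture and 4.7 to 8.13 CPM (median 7.15) on matrix (2.67 ± 0.20, adjusted p = 2.38e-07). PDGFA rose by 0.65 ± 0.0918 (adjusted p = 9.06e-05) and PDGFD by 0.51 ± 0.0915 (adjusted p = 0.000661). In all 3 the arms did not overlap. The receptors PDGFRB and PDGFRA, which stromal cells carry, rose by 1.14 ± 0.22 and 1.12 ± 0.29 from under 1 CPM in control, to at most 3.18 and 1.50 CPM, and turned to −2.59 and −3.87 with the replicate 1 libraries added. Of 7 genes of this axis 6 passed the threshold, each of them higher, with a median of 0.92. With the endothelial scaling 5 rose and 0 fell, with a median of 0.62. EFNA1, an ephrin ligand, was at 3.59 to 6.47 CPM (median 4.57) in co-culture and 0.28 to 0.461 CPM (median 0.367) on matrix (3.65 ± 0.17, adjusted p = 4.07e-09). EPHB4, the ephrin receptor of venous endothelium, was at 174 to 284 CPM (median 214) in co-culture and 52.8 to 86.9 CPM (median 84.6) on matrix (1.53 ± 0.16, adjusted p = 5.2e-06). Among 12 ephrins and Eph receptors tested 8 rose and 1, EPHA4 at −0.78 ± 0.15, fell, with a median of 0.73 (0.46 with the endothelial scaling).

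Angiogenic genes were divided, 13 up and 5 down of 28 (median 0.41; 0.14 with the endothelial scaling). APLN, the tip-cell peptide apelin, was at 294 to 449 CPM (median 379) in co-culture and 97 to 122 CPM (median 109.7) on matrix (1.78 ± 0.11, adjusted p = 3.89e-08). PGF, placental growth factor, was at 194 to 229.6 CPM (median 216) in co-culture and 82.8 to 111 CPM (median 87.8) on matrix (1.22 ± 0.0928, adjusted p = 3.14e-07). ESM1, another tip-cell gene, fell from 325 to 411 CPM on matrix to 93.3 to 176 CPM (−1.53 ± 0.11, adjusted p = 2.49e-07). VEGFC, the lymphatic growth factor, fell by 1.24 ± 0.12 (adjusted p = 2.36e-06). The 4 genes had arms that were apart. NRP2, a VEGF coreceptor, rose by 0.92 ± 0.17 (adjusted p = 0.000956) and TEK, the angiopoietin receptor, by 0.60 ± 0.0895 (adjusted p = 0.000146), with arms apart. KDR, the main VEGF receptor, rose by 0.68 ± 0.16 (adjusted p = 0.00534), with libraries that overlapped. FLT1 did not pass, at 0.10 ± 0.13.

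Targets and regulators of TGF-beta signalling were among the lists with the most rises. Of 36 tested 23 rose and 4 fell (63.9% and 11.1%, against 15.8% and 14.8% of all genes). The median was 0.83 (0.55 with the endothelial scaling, with 20 rises and 7 falls). SNAI1, the transcription factor Snail, was at 54.7 to 69.9 CPM (median 66.6) in co-culture and 7.12 to 12.2 CPM (median 9.28) on matrix (2.78 ± 0.12, adjusted p = 2.22e-09). SKIL, the SMAD inhibitor SnoN that the pathway induces, was at 299 to 337 CPM (median 314) in co-culture and 104 to 138 CPM (median 119) on matrix (1.41 ± 0.0779, adjusted p = 2.05e-08). SMAD7, its inhibitory SMAD, was at 15 to 24.1 CPM (median 19.1) in co-culture and 4.65 to 9.23 CPM (median 6.7) on matrix (1.56 ± 0.16, adjusted p = 6.1e-06). Each of these had co-culture wholly above the matrix, with control between the arms or overlapping the matrix. The BMP-side inhibitor SMAD6 rose by 1.05 ± 0.16 (adjusted p = 0.000144), the receptor ACVRL1 by 0.78 ± 0.0894 (adjusted p = 1.47e-05) and the ligand BMP6 by 1.05 ± 0.11 (adjusted p = 8.15e-06). LTBP3, which holds latent TGF-beta in matrix, and its relative LTBP2 rose by 1.04 ± 0.17 and 1.56 ± 0.22. The 4 that fell were INHBA, the activin subunit, at −1.58 ± 0.14 (adjusted p = 1.22e-06), ZEB2 at −1.02 ± 0.0996 (adjusted p = 3.08e-06), TGFBR3 and BMP2. Of the 23 risers 6 were near absent in control, and 13 stood higher in co-culture than in control replicate 1. With the replicate 1 libraries added, 5 rose and 2 fell, with a median of 0.22.

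Proteases of the matrix moved apart from each other. MMP2, gelatinase A, was at 1700.4 to 2158 CPM (median 1762) in co-culture and 334 to 495 CPM (median 452) on matrix (2.09 ± 0.13, adjusted p = 4.23e-08), and control at 498 to 819 CPM lay between. MMP1, given above, fell. PLAUR, the urokinase receptor, fell by 0.85 ± 0.11 (adjusted p = 4.42e-05), while the inhibitors TIMP2 and TIMP3 rose by 0.65 ± 0.15 and 0.57 ± 0.14. In all, 14 of 27 rose and 6 fell, with a median of 0.57 (0.31 with the endothelial scaling, with 13 rises and 6 falls). Of the 9 tested members near absent in control 7 rose, and of the other 18 members 7 rose and 6 fell.

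Basement membrane genes had 12 rises and 4 falls among 23 (median 0.54; 0.27 with the endothelial scaling). HSPG2, perlecan, was at 746 to 1481 CPM (median 1259) in co-culture and 193 to 497 CPM (median 398) on matrix (1.67 ± 0.25, adjusted p = 0.000167). SPARC, a collagen-binding glycoprotein, was at 572 to 621 CPM (median 585) in co-culture and 252 to 294 CPM (median 269.7) on matrix (1.12 ± 0.0763, adjusted p = 1.14e-07). COL4A2 rose by 1.16 ± 0.17 (adjusted p = 0.000104), NID1, nidogen-1, by 1.35 ± 0.24 (adjusted p = 0.000555) and LAMA4, a laminin chain of vessels, by 0.64 ± 0.14 (adjusted p = 0.003). LAMB3, a chain of epithelial laminin, fell by 0.94 ± 0.18 (adjusted p = 0.00132) and COL4A6 fell by 1.20 ± 0.19 (adjusted p = 0.000275). HSPG2 and SPARC did not pass once the replicate 1 libraries were added, at 1.59 and 0.64 (adjusted p = 0.0713 and 0.186). HSPG2 had a mean in co-culture 4.42 times its level in control replicate 1, whereas COL4A1 and COL4A2, with rises of 0.84 ± 0.23 and 1.16 ± 0.17, stood at 0.0724 and 0.105 of theirs and turned to −1.04 and −1.18 with the replicate 1 libraries added.

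Fibrillar collagens and other stromal genes rose to levels far under those of the stromal-rich library. COL1A1 (ENSG00000108821.14, chromosome 17, 50183289 to 50201632), the main chain of collagen I, was at 49.6 to 175 CPM (median 98.2) in co-culture and 4.6 to 11.3 CPM (median 7.38) on matrix (3.70 ± 0.31, adjusted p = 8.09e-07). Control replicates 2 to 4 held 5.82 to 6.49 CPM and control replicate 1 held 4119 CPM, so that the co-culture mean was 0.026 of the latter. COL1A2 and COL3A1 rose by 3.02 ± 0.27 (adjusted p = 1.43e-06) and 2.87 ± 0.34 (adjusted p = 1.84e-05), and POSTN, periostin, by 3.57 ± 0.24 (adjusted p = 1.25e-07). Their co-culture means were 0.0255, 0.0395 and 0.0194 of control replicate 1. COL6A3 and COL6A2 rose by 2.62 ± 0.25 and 2.15 ± 0.25, at 0.0294 and 0.0249 of that library. The values of all 6 turned with the replicate 1 libraries added, to −1.25 (COL3A1) through −4.17 (COL6A3). COL5A1 stood apart from these, at 189.5 to 378 CPM (median 295) in co-culture and 26.7 to 63.9 CPM (median 52) on matrix (2.53 ± 0.21, adjusted p = 7.83e-07) and 0.732 of control replicate 1.

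Of 17 collagens tested 12 rose and 1 fell, with a median of 1.38, and 8 of the 12 had a co-culture mean under 0.1 of control replicate 1. Of 29 stromal identity genes 21 rose and 1 fell, with a median of 1.70, and 15 of the 21 were under 0.1 of that library. With the endothelial scaling the medians were 1.09 and 1.41. The stromal gene that fell was LOX, lysyl oxidase, at −1.35 ± 0.0892 (adjusted p = 8.75e-08), which control cells held at 61.2 to 87 CPM. FAP, fibroblast activation protein, was the riser above control replicate 1, at 55.3 to 74.8 CPM (median 64.1) in co-culture and 15.5 to 21.5 CPM (median 18.5) on matrix, against 55.2 CPM there. The stromal list's share of counts moved with these genes, as given above, and its part in each rise was not tested. Adding the replicate 1 libraries of young co-culture and of both ECM groups turned the medians to −2.07 for the stromal list and −1.23 for the collagens. The same addition turned the medians of several other lists below 0: basement membrane −0.03, proteases −0.15, junctions −0.06, integrins −0.04, YAP −0.26, secretory factors −0.46, chemokines −0.59, immediate early genes −0.20, vasoactive genes −0.02, WNT −0.06 and complement −0.17. Counts of members that rose and fell also dropped, to 8 and 2 for endothelial identity, 5 and 0 for Notch and likewise for junctions, 13 and 0 for interferon and 7 and 3 for angiogenic genes. For cell cycle, chemokine, cholesterol and complement genes both counts were 0.

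**Figure D4:**
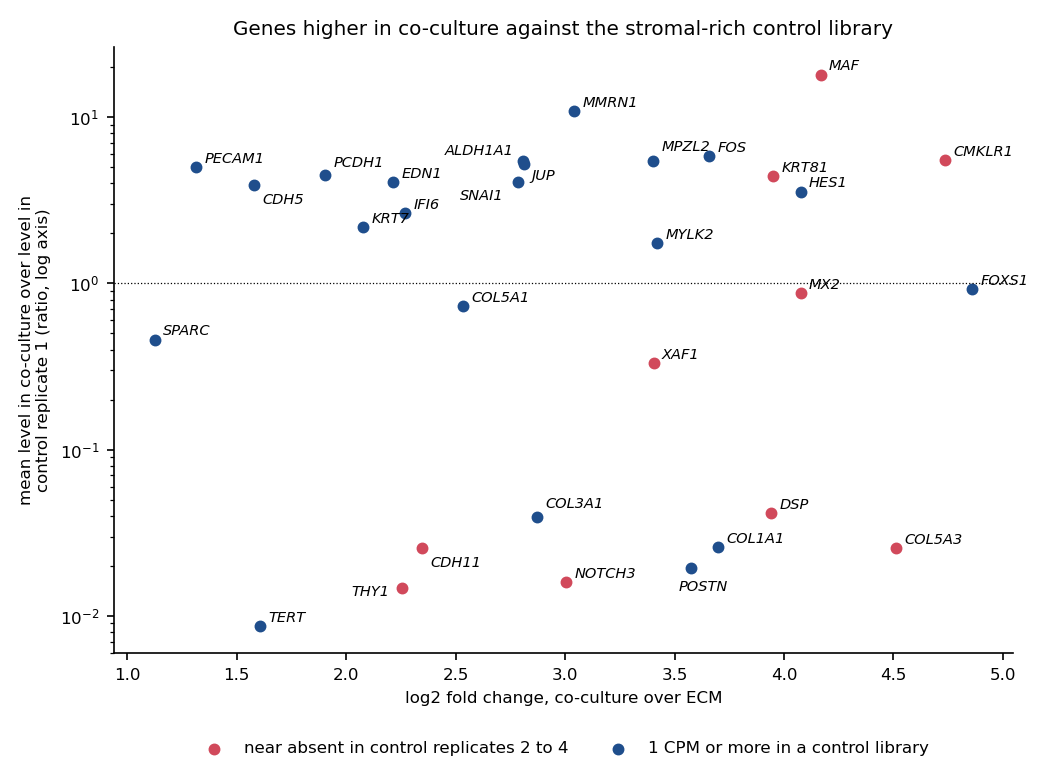
For 31 genes higher in co-culture, the log2 fold change over ECM (x axis) against the ratio of the co-culture mean to the level in control replicate 1, both relative to the library total (y axis, log scale). Red points are genes near absent in control replicates 2 to 4, blue points others, and the dotted line marks a ratio of 1. Stromal genes such as COL1A1, POSTN and THY1 lie between ratios of 0.01 and 0.05, and HES1, JUP, PECAM1, CDH5 and EDN1 between 3 and 6.

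For some other named rises the mean in co-culture was above the level in control replicate 1, and for others, FOXS1 among them, it was below. The endothelial list took 0.371% of counts in that library, against 0.441 to 0.609% in control replicates 2 to 4. Which cells a rise came from was not tested. The co-culture mean was 5.85 times control replicate 1 for FOS, 5.45 times for MPZL2, 5.25 times for ALDH1A1 and 10.9 times for MMRN1. It was 5.43 times for JUP, 4.99 times for PECAM1, 3.92 times for CDH5 and 4.05 times for EDN1. FOXS1 was at 8.36 CPM in that library, close to its level in co-culture, with a ratio of 0.924. Over all genes that rose, 25.9% were more than 2-fold higher in control replicate 1 than in the mean of the matrix libraries, against 8.35% of genes tested and 3.57% of genes that fell. The same matrix libraries enter the calls and this ratio. Choosing rises for a low matrix level favours a high share among them, and choosing falls a low one. How much of the difference this makes was not tested.

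Genes near absent in control were set apart by a level under 1 CPM in each of control replicates 2 to 4. Of the 5140 such genes tested 949 rose (18.5%) and 580 fell (11.3%), 642 and 370 of them past a fold change of 2. A gene at hardly any counts in one arm could be tested only through the other, so these shares are no measure of how such genes behave in general. Of the 12842 other genes 1890 rose (14.7%) and 2083 fell (16.2%), 300 and 341 past a fold change of 2. Of the near-absent rises 47.9% were more than 2-fold higher in control replicate 1 than in the matrix mean, against 16.4% of near-absent genes tested. Here too the matrix libraries enter both the calls and the ratio, which favours a high share among rises.

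Among protein-coding genes near absent in control, 1 reached a mean of 5 CPM in co-culture with arms apart, THY1, the stromal surface protein CD90. It was at 3.61 to 10.3 CPM (median 5.4) in co-culture and 0.723 to 1.77 CPM (median 1.26) on matrix (2.25 ± 0.28, adjusted p = 3.02e-05), and at 422 CPM in control replicate 1. THY1 turned to −4.12 with the replicate 1 libraries added. Other near-absent rises named here ranged from far below that library to above it. COL5A3, a minor fibrillar collagen, was at 1.85 to 6.78 CPM (median 3.61) in co-culture and 0.114 to 0.202 CPM (median 0.162) on matrix (4.51 ± 0.28, adjusted p = 5.28e-08) and at 0.0256 of control replicate 1. DSP rose by 3.94 ± 0.41 (adjusted p = 6.26e-06), CDH11 by 2.35 ± 0.34 (adjusted p = 0.000128) and ADAMTS2, a procollagen protease, by 3.55 ± 0.37 (adjusted p = 5.63e-06), at 0.0416, 0.0256 and 0.0191 of it. The same addition turned COL5A3 to −3.34, DSP to −2.47, CDH11 to −2.99 and ADAMTS2 to −3.26. ELN, elastin, was at 0.226 to 5.94 CPM (median 1.44) in co-culture and 0.0207 to 0.105 CPM (median 0.0569) on matrix (5.01 ± 0.49, adjusted p = 3.06e-06), with the widest spread of these.

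Above it stood CMKLR1, the chemerin receptor, at 2.1 to 5.37 CPM (median 2.73) in co-culture and 0.083 to 0.183 CPM (median 0.113) on matrix (4.74 ± 0.28, adjusted p = 3.63e-08), 5.52 times control replicate 1. MAF, a bZIP transcription factor, was at 0.727 to 2.6 CPM (median 1.86) in co-culture and 0.0629 to 0.114 CPM (median 0.0896) on matrix (4.17 ± 0.31, adjusted p = 2.72e-07), 18.1 times. FAM110D rose by 4.42 ± 0.26 (adjusted p = 3.09e-08), at 5.45 times. DMBT1, a scavenger receptor family glycoprotein, was at 2.77 to 5.33 CPM (median 3.76) in co-culture and 0.121 to 0.268 CPM (median 0.229) on matrix (4.11 ± 0.21, adjusted p = 9.27e-09). P2RY6, a UDP receptor, rose by 3.50 ± 0.20 (adjusted p = 3.09e-08), and PMEPA1, a TGF-beta target that restrains the pathway, by 4.39 ± 0.31 (adjusted p = 1.92e-07), both at about their level in control replicate 1 (ratios of 0.961 and 1). KRT81, a hair keratin with near-identical copies, rose by 3.95 ± 0.30 (adjusted p = 3.1e-07). In each of these 7 genes the arms did not overlap. IL6, the inflammatory cytokine, rose by 2.16 ± 0.24 (adjusted p = 1.22e-05) to 2.46 to 5.63 CPM, at 0.556 of control replicate 1. In the other direction, IGFBP1, which binds insulin-like growth factors, fell by 2.37 ± 0.30 (adjusted p = 3.69e-05), from 0.135 to 0.314 CPM on matrix to 0.0262 to 0.0628 CPM. The near-absent genes named here, other than THY1, were chosen after their values were seen.

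Of 41 interferon-stimulated genes tested 29 rose (70.7%) and 2 fell, with a median of 0.69 (0.38 with the endothelial scaling, with 19 rises and 4 falls). With the replicate 1 libraries added 13 rose and 0 fell, with a median of 0.64. IFI6, an antiviral membrane protein, was at 61.7 to 147 CPM (median 131) in co-culture and 21.6 to 35.5 CPM (median 23.3) on matrix (2.27 ± 0.19, adjusted p = 7.79e-07). OAS2, which makes the activator of RNase L, was at 30.8 to 85.9 CPM (median 50.1) in co-culture and 12.9 to 16.1 CPM (median 14.5) on matrix (1.79 ± 0.17, adjusted p = 2.42e-06). For both the co-culture libraries were wholly above the matrix. IFI44L rose by 2.08 ± 0.18 (adjusted p = 1.19e-06), IFIT1, which binds viral RNA, by 2.20 ± 0.25 (adjusted p = 1.36e-05) and PARP9 by 1.28 ± 0.12 (adjusted p = 2.53e-06). XAF1, an apoptosis regulator, and MX2, an antiviral GTPase, rose from under 1 CPM in control, by 3.40 ± 0.23 (adjusted p = 9.34e-08) and 4.08 ± 0.31 (adjusted p = 3.31e-07). The 2 that fell were USP18, a negative regulator of the pathway, at −1.10 ± 0.094 (adjusted p = 9.29e-07), and SAMD9 at −0.43 ± 0.12 (adjusted p = 0.0166). STAT2, IFIT3 and OAS3 did not pass, at 0.07 ± 0.15, −0.07 ± 0.12 and 0.41 ± 0.20.

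With young MSCs the list's median was 0.87, with 29 rises and 1 fall, and with senescent MSCs 0.47, with 13 and 2. Of all 17982 genes, 1685 rose and 1570 fell with young MSCs, and 1405 and 1158 with senescent MSCs. The median difference over all genes, senescent minus young, was 0.0155. Members of a list are not independent of each other. The log2 fold change was larger with young MSCs in 38 of the 41 genes, and the 2 genes for which the difference between states passed the test were not among them. OAS2 stood at 65.9, 61.8 and 85.9 CPM with young and 35.8, 38.4 and 30.8 CPM with senescent MSCs in co-culture replicates 2, 3 and 4, and at 12.9, 14.9 and 16.1 CPM and 13.9, 15 and 14 CPM on the matching matrix. The control mean lay between the arms and, in CPM, nearer the matrix for 20 of the 29 risers and below both for 8. In co-culture 20 of the 29 stood higher than in control replicate 1, and 1 stood under 0.1 of it.

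The interferon-stimulated response element is visible upstream of several of these genes. The motif searched was GAAANNGAAA on either strand, in capitals, over the 250 bases before each gene start in RefSeq windows of GRCh38.p14. Of 32 tested interferon genes with a window 20 held a match (62.5%), against 3.07% of all 27305 windows. Of the 22 risers with a window 14 held one (63.6%), so that risers and the whole list did not stand apart. The 3 shown are the risers with the largest fold change that held it, IFI6 (chr1:27672193-27672442, minus strand, 3 matches), IFIT1 (chr10:89392373-89392622, plus strand, 2 matches) and IFI44L (chr1:78620198-78620447, plus strand, 2 matches).
IFI6: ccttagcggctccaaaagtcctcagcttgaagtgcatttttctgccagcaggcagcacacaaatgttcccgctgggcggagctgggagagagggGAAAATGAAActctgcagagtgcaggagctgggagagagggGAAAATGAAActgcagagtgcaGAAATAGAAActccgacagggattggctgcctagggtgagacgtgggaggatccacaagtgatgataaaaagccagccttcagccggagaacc
IFIT1: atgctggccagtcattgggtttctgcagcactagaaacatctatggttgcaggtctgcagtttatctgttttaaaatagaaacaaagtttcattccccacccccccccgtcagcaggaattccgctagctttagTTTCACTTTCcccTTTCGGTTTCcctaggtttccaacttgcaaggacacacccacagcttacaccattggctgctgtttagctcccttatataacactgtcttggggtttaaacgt
IFI44L: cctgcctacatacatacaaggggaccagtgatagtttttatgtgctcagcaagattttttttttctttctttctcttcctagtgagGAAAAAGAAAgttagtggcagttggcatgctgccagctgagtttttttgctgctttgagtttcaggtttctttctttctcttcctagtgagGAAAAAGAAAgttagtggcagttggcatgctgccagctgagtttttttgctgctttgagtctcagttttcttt
In IFIT1 the matches lie on the opposite strand, and in IFI6 and IFI44L they read as searched.

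Genes of the oxidative stress response driven by the factor NRF2 fell. Of 28 tested 20 fell and 3 rose, with a median of −0.74 (−1.03 with the endothelial scaling). TXNRD1, thioredoxin reductase 1, was at 395 to 547 CPM (median 484) in co-culture and 1054 to 1482 CPM (median 1187) on matrix (−1.38 ± 0.11, adjusted p = 4.51e-07). SLC7A11, the cystine importer, was at 50.5 to 89.2 CPM (median 74.3) in co-culture and 189.6 to 318 CPM (median 248) on matrix (−1.73 ± 0.15, adjusted p = 1.27e-06). OSGIN1, an oxidative stress induced growth inhibitor, was at 18.4 to 24.9 CPM (median 20.1) in co-culture and 40.2 to 57.1 CPM (median 51.7) on matrix (−1.29 ± 0.11, adjusted p = 9.71e-07). In all 3 the arms were apart and control lay beside or near the matrix. The pentose phosphate enzymes PGD and TALDO1 fell too, with log2 fold changes of −0.83 ± 0.0872 and −0.93 ± 0.13. NQO1, a quinone reductase, fell by 0.78 ± 0.12 (adjusted p = 0.000223), and HMOX1, heme oxygenase 1, fell by 0.75 ± 0.12 (adjusted p = 0.000363). AKR1C1, which shares near-identical copies with its neighbours, fell by 2.48 ± 0.21 (adjusted p = 7.74e-07). In CPM, the control mean lay between the arms and nearer the matrix for 15 of the 20, and between them and nearer co-culture for 4.

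Glutathione synthesis did not move as one. GCLM, the modifier subunit of glutamate-cysteine ligase, fell from 106 to 136 CPM on matrix to 59.3 to 82.5 CPM (−0.73 ± 0.0903, adjusted p = 2.88e-05). GCLC, its catalytic subunit, rose from 41.6 to 48.5 CPM to 58.5 to 66.6 CPM (0.47 ± 0.0714, adjusted p = 0.000176). The other members that rose were ALDH1A1, given above, and ABCC3 at 0.36 ± 0.13 (adjusted p = 0.0472), which did not pass without most single libraries. The fall was seen with both MSC states, with medians of −0.79 with young and −0.57 with senescent MSCs, and 18 and 13 falls. Of all 17982 genes, 1570 fell with young and 1158 with senescent MSCs. With the replicate 1 libraries added, 6 genes fell and 1 rose, with a median of −0.29, and SLC7A11 had an adjusted p of 0.0583.

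The core of the antioxidant response element to which NRF2 binds, TGACNNNGC on either strand, occurs in 11% of all 27305 windows. Of the 20 tested members with a window 5 held it (25%), and these were among the 14 fallers with a window (35.7%). TXNRD1 (chr12:104215529-104215778, plus strand) and GCLM (chr1:93909431-93909680, minus strand) are shown because both fell and are known targets, with the match in capitals.
TXNRD1: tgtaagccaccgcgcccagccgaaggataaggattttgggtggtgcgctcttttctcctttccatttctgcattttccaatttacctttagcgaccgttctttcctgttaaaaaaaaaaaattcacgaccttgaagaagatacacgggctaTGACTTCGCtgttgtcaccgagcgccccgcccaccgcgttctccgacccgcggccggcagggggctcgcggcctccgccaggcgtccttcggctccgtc
GCLM: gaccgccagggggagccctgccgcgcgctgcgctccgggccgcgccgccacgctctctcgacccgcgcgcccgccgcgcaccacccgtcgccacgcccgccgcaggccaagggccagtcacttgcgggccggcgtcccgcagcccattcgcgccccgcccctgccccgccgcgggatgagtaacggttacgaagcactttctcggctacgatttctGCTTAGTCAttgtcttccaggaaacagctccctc
In GCLM the match lies on the opposite strand, within 34 bases of the gene start.

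**Figure D5:**
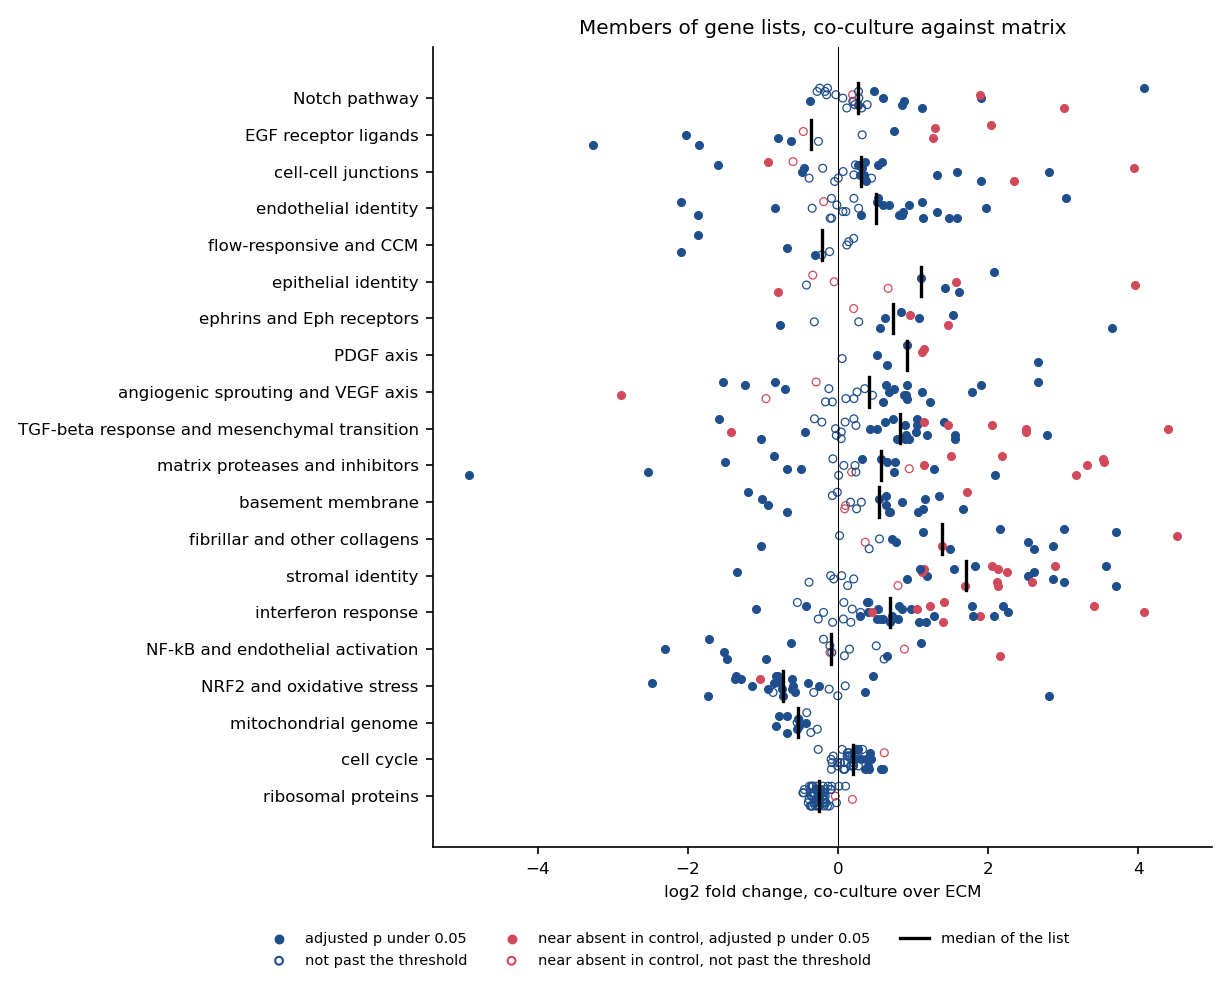
Log2 fold change of co-culture over ECM for each tested member of 20 gene lists; filled points passed an adjusted p of 0.05, open points did not, red points were near absent in control, and black bars are list medians. Interferon and TGF-beta genes lie mostly to the right of 0 (medians 0.69 and 0.83) and NRF2 genes mostly to the left (median −0.74).

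Inflammatory genes of the NF-kB pathway had 3 rises and 6 falls among 18 (median −0.10). With the endothelial scaling 2 rose and 9 fell, with a median of −0.37. TRAF1, an adaptor the pathway induces, was at 0.536 to 1.27 CPM (median 0.97) in co-culture and 3.71 to 5.67 CPM (median 4.85) on matrix (−2.31 ± 0.19, adjusted p = 5.86e-07). TNFAIP3, its feedback inhibitor A20, was at 6.12 to 14 CPM (median 9.99) in co-culture and 19.8 to 30.4 CPM (median 29.1) on matrix (−1.51 ± 0.15, adjusted p = 4.14e-06). IL1A, the cytokine interleukin-1 alpha, fell by 1.72 ± 0.16 (adjusted p = 1.93e-06). BIRC3, an inhibitor of apoptosis, fell by 1.48 ± 0.19 (adjusted p = 3.5e-05) and the subunit RELB fell by 0.96 ± 0.14 (adjusted p = 0.000153). For all 6 genes that fell, the control mean lay between the arms and, in CPM, nearer co-culture. ICAM1, a leukocyte adhesion receptor, went the other way, at 10.6 to 21.5 CPM (median 15.2) in co-culture and 5.04 to 8.25 CPM (median 7.66) on matrix (1.10 ± 0.14, adjusted p = 4.46e-05).

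Secreted factors that senescent cells are known for fell and rose in similar numbers, 13 up and 10 down of 43 tested (median 0.20; −0.09 with the endothelial scaling). SERPINB2, AREG, STC1 and MMP1, given above, were the largest falls, and SPP1, osteopontin, fell by 1.49 ± 0.14 (adjusted p = 3.02e-06). GDF15, a stress-induced cytokine, was at 139 to 197 CPM (median 179.7) in co-culture and 67.8 to 93.7 CPM (median 76.2) on matrix (1.15 ± 0.10, adjusted p = 1.75e-06), and SERPINE2, protease nexin-1, at 26.4 to 65.1 CPM (median 37.1) in co-culture and 14.2 to 19.3 CPM (median 16.2) on matrix (1.28 ± 0.16, adjusted p = 2.9e-05). Both had arms apart, and SERPINE2 turned to −0.15 with the replicate 1 libraries added. Of 12 chemokine genes 4 rose and 0 fell (median 0.36), but 2 rose and 2 fell with the endothelial scaling (median 0.06), and 0 passed in either direction with the replicate 1 libraries added. CCL2, which attracts monocytes, was at 17 to 33.2 CPM (median 24.4) in co-culture and 11.7 to 20.7 CPM (median 14.3) on matrix (0.65 ± 0.16, adjusted p = 0.00627) and CXCR4, the receptor of CXCL12, rose by 0.74 ± 0.14 (adjusted p = 0.000981), whereas CXCL8, which attracts neutrophils, did not pass at 0.51 ± 0.31. In the IGF axis 3 of 10 rose and 2 fell (median 0.24; −0.03 with the endothelial scaling, with 3 rises and 4 falls), among them the binding proteins IGFBP7 at 0.94 ± 0.12 (adjusted p = 4.98e-05) and IGFBP3 at −1.02 ± 0.18 (adjusted p = 0.000512). Of 12 complement genes 4 rose and 4 fell (median 0.24; −0.04 with the endothelial scaling, with 3 rises and 5 falls). C1S, a protease of the classical pathway, rose by 1.41 ± 0.25 (adjusted p = 7e-04), turning to −0.12 with the replicate 1 libraries added, and CD55, a shield against complement, fell by 0.49 ± 0.0791 (adjusted p = 0.000275).

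Lists of stress, growth arrest and metabolism held changes in both directions. Among p53 targets 11 of 28 rose and 3 fell (median 0.20; −0.09 with the endothelial scaling). TP53INP1, a stress-induced nuclear protein, was at 22.4 to 32.8 CPM (median 26.3) in co-culture and 11.5 to 15.5 CPM (median 12.9) on matrix (1.02 ± 0.0921, adjusted p = 1.62e-06), and PLK3, a stress kinase, at 65.5 to 85 CPM (median 74.7) in co-culture and 32.5 to 38.2 CPM (median 35.3) on matrix (1.08 ± 0.0841, adjusted p = 3.92e-07), while CDKN1A, the cell cycle inhibitor p21, did not pass at 0.03 ± 0.11. Integrated stress and unfolded protein response genes had 9 rises and 11 falls of 31 (median 0.02; −0.29 with the endothelial scaling, with 4 rises and 13 falls). DDIT4, an inhibitor of mTOR, was at 11.8 to 19 CPM (median 17.2) in co-culture and 1.53 to 3.33 CPM (median 2.55) on matrix (2.71 ± 0.16, adjusted p = 3.68e-08). The chaperones HSPA5 and HYOU1 rose by 0.54 ± 0.0944 (adjusted p = 0.000569) and 0.85 ± 0.13 (adjusted p = 0.000182), and TRIB3 and CHAC1, targets of the factor ATF4, fell, with −0.82 ± 0.11 (adjusted p = 4.19e-05) and −0.86 ± 0.14 (adjusted p = 0.000262). Hypoxia and glycolysis genes had 7 rises and 6 falls of 33 (21.2% and 18.2%), near the 15.8% and 14.8% of all genes. Their median was −0.05 (−0.32 with the endothelial scaling, with 5 rises and 16 falls). SLC2A1, the glucose transporter GLUT1, was at 95.9 to 125 CPM (median 105) in co-culture and 29.5 to 46.5 CPM (median 43.1) on matrix (1.40 ± 0.13, adjusted p = 1.43e-06), whereas NDRG1 fell by 0.90 ± 0.11 (adjusted p = 3.51e-05) and GAPDH did not pass, at −0.20 ± 0.11.

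Cholesterol and lipid synthesis genes had 7 rises and 2 falls of 26 (median 0.19; −0.08 with the endothelial scaling). INSIG1, which restrains the pathway, was at 30.5 to 58.8 CPM (median 38) in co-culture and 12.4 to 15.3 CPM (median 13.8) on matrix (1.52 ± 0.11, adjusted p = 2.48e-07). SCD, a fatty acid desaturase, was at 51 to 133 CPM (median 71.3) in co-culture and 18.9 to 30.4 CPM (median 25.7) on matrix (1.62 ± 0.20, adjusted p = 3.22e-05). Both had arms apart. The list's median was 0.42 with young and 0.00 with senescent MSCs, and the log2 fold change was larger with young MSCs in 23 of 26 genes, none of which was among the 2 whose difference passed the test. The median difference over all genes, senescent minus young, was 0.0155, and members of a list are not independent of each other. For SCD the values were 2.19 ± 0.19 with young and 1.04 ± 0.18 with senescent MSCs. In the WNT pathway 8 of 19 rose and 4 fell (median 0.15; −0.16 with the endothelial scaling). Beside WNT16, FZD2, a receptor, rose by 1.29 ± 0.11 (adjusted p = 8.97e-07) and WNT5A, a noncanonical ligand, by 1.59 ± 0.23 (adjusted p = 0.000135), though WNT5A turned to −2.94 with the replicate 1 libraries added, while AXIN2, a feedback target of the canonical pathway, did not pass at −0.34 ± 0.18.

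Lists of housekeeping machinery differed among themselves. Of 50 cell cycle genes 13 passed the threshold, each of them higher, with a median of 0.20, but with the endothelial scaling the 2 that passed were lower, with a median of −0.10. For 9 of the 13 the control mean lay above both arms. Of 71 ribosomal protein genes 0 passed in edgeR's test, 0 had an unadjusted p under 0.05 and 0 passed in DESeq2 (median −0.26). With the endothelial scaling 10 of them fell, with a median of −0.57. With no filter on low counts 23 fell, and without the ECM library of young MSCs numbered 4 there were 3 falls. Without the library numbered 3 of that group, the one rich in ribosomal protein counts, their median was 0.00. For genes of the mitochondrial genome 8 of 13 fell (median −0.54), with overlapping libraries in each. With the endothelial scaling 13 of 13 fell, with a median of −0.80. MT-ND4, a subunit of complex I, was at 2001 to 3262 CPM (median 2382) in co-culture and 3068 to 5492 CPM (median 4813) on matrix (−0.82 ± 0.18, adjusted p = 0.00353). The falls numbered 5 without ECM of senescent MSCs replicate 2, and likewise without co-culture with senescent MSCs replicate 2 or 3. Their share of all counts was 1.66 to 2.66% in co-culture and 2.22 to 3.65% on matrix.

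The 2 genes that passed edgeR's test of the difference between MSC states were CYP1A1 and C1QTNF1. CYP1A1, a detoxifying enzyme that the aryl hydrocarbon receptor switches on, was at 12.9, 12.4 and 14.3 CPM in co-culture with young MSCs and at 1.55, 1.4 and 2.23 CPM with senescent MSCs. On matrix it was at 3.22, 3.59 and 4.64 CPM and 3.26, 3.46 and 2.89 CPM. Its log2 fold changes were 1.79 ± 0.19 with young and −0.89 ± 0.20 with senescent MSCs, and the difference of −2.68 ± 0.27 had an adjusted p of 0.00424. Co-culture with young MSCs thus lay above the matrix and co-culture with senescent MSCs below it. C1QTNF1, a secreted C1q family protein near absent in control, was at 0.282, 0.332 and 0.246 CPM in co-culture with young and at 2.26, 1.71 and 1.26 CPM with senescent MSCs. On matrix it was at 0.233, 0.228 and 0.197 CPM and 0.186, 0.183 and 0.115 CPM, and the difference was 3.04 ± 0.41 (adjusted p = 0.0482). It was at 2.32 CPM in control replicate 1. Leaving out 1 library ended this second call for 9 of the 12 libraries, with adjusted p of 0.0585 to 0.18, and scaling on the endothelial list gave 0.123. With the replicate 1 libraries added neither gene passed (adjusted p = 0.998 for both), and the fold change of C1QTNF1 over both states turned to −0.54.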

How the data were processed

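RNA-seq libraries of EA.hy926 cells were compared, 6 from direct co-culture with MSCs and 6 from decellularised matrix. The authors deposited a table of raw read counts per gene. Per the submitters' processing notes, the tools were HISAT2 2.2.1 and featureCounts 2.0.1 and the build GRCh38. Annotation release and strand setting: not given in the sources used here. Antisense, overlapping and near-identical genes are therefore uncertain. Counts per library set the precision.

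Genes passing a minimum count of 10 (filterByExpr) were tested in edgeR 4.0.16 (R 4.3.3) with TMM scaling and the quasi-likelihood test, with MSC state as covariate, residual df of 9 and Benjamini-Hochberg adjustment at 0.05. Errors are SE of the log2 fold change. A fit with 4 groups gave the values per MSC state and their difference. CPM were scaled by TMM over 15 libraries, control included. Near absent means under 1 CPM in each of control replicates 2 to 4. Ratios to control replicate 1 use CPM of the library total. Deviations of same-numbered libraries correlated above 0.1 in all 3 pairs of ECM young and co-culture young, and not in all pairs of the other groups. The tests were run on simulated counts first. Within each group, every pair of libraries differed by more than sampling noise (lowest chi-square per degree of freedom 19.8).

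Named genes are the 12 largest rises and 12 largest falls among protein-coding genes with a mean of 5 CPM in an arm and no overlap between arms, the near-absent genes of that kind, and up to 4 members of each list with the lowest p. Further genes were chosen after their values were seen, and a few genes that the rule names are not reported here. The members and the lists were chosen with earlier results of these data known. Alternatives were RLE scaling, scaling on the endothelial list, DESeq2 1.42.0, no filter, a replicate block, all replicates, control in the fit, near-absent genes removed and leaving out each library. Promoter windows and gene identities are from RefSeq (GRCh38.p14) and the annotation of GRCh38.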

Additional observations from a re-analysis of the deposited data

Results flagged for a closer look

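The difference between MSC states in the response to co-culture over matrix passed the test for 2 genes. For CYP1A1 the log2 fold change with senescent MSCs minus that with young MSCs was −2.68 ± 0.272 (SE; adjusted p = 0.00424, edgeR), and the 2 values had opposite signs. For C1QTNF1 the same difference was 3.04 ± 0.41 (adjusted p = 0.0482), with both values above 0. No explanation was tested for either. Labelled groups hold 3 libraries each, too few for the test of single libraries that stand apart.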

How the results depend on the processing

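The 5502 genes called between co-culture and matrix became 5503 with RLE scaling, 7178 with the endothelial list as scale, 6107 in DESeq2, 6156 with no filter, 4945 with control in the fit, 3981 with near-absent genes removed and 4742 to 5928 with 1 library left out. Adding the replicate 1 libraries (senescent co-culture has none) left 1531, of which 1505 were among the 5502. It left 460 of 3255 with young MSCs, 202 of 2563 with senescent MSCs and 0 for the difference between states, with 678 at an unadjusted p under 0.05 in the reported edgeR test. Leaving out 1 library gave 2257 to 3710 with young and 1730 to 3611 with senescent MSCs. The 2 genes called for the difference between states became 1 with the endothelial scaling, 60 in DESeq2, 125 with no filter, 9 with control in the fit, 1 with near-absent genes removed and 1 to 10 with 1 library left out, the highest without ECM young replicate 3. The cause of these shifts was not tested. The 1529 called genes near absent in control became 1121 to 1902 under other limits.

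With replicate number as a block the counts were 6287 in all, 3993 with young MSCs, 3044 with senescent MSCs and 8 for the difference between states. Of 18 pairs of libraries with the same number, 11 had deviations correlated above 0.1 (range −0.229 to 0.639, against −0.59 to 0.463 for other numbers), and 9 of 12 libraries correlated best with their own number. The labels name no shared batch or day. ECM young and co-culture young correlated at 0.421, 0.639 and 0.115 for the 3 shared numbers, so the numbers may pair these samples. The reported 3255 calls with young MSCs came from the fit without the block and leave such pairing out. With the block, as an alternative, there were 3993. Over the 4 groups together the numbers were not taken to pair the samples.

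With the replicate 1 libraries added these named genes changed sign on the log2 scale: ADAMTS2 −3.26, C1QTNF1 −0.54, C1S −0.12, CDH11 −2.99, COL1A1 −2.69, COL1A2 −2.62, COL3A1 −1.25, COL4A1 −1.04, COL4A2 −1.18, COL5A3 −3.34, COL6A2 −3.98, COL6A3 −4.17, DSP −2.47, EPGN −4.17, EREG −4.35, ITGA11 −2.06, MYL9 −3.75, NOTCH3 −4.25, PDGFRA −3.87, PDGFRB −2.59, POSTN −3.00, SERPINE2 −0.15, TAGLN −3.47, TERT −5.82, THY1 −4.12 and WNT5A −2.94. Those that kept their sign and lost the call were ABCC3, ADM, ANXA2, BCL2A1, CCL2, CCN1, CD55, CLDN1, COL4A6, COL5A1, CTNNB1, CXCR4, DUSP6, EGR1, ELN, ENG, EPHA4, ERBB4, ERG, F2R, FAP, FLI1, FOXS1, FZD2, GCLC, GJA1, HMOX1, HSPA5, HSPG2, HYOU1, ICAM1, IL6, INSIG1, ITGAV, KDR, KLF2, LAMA4, LTBP2, LTBP3, LYPD5, MAML2, MAML3, MX2, NEDD9, NID1, NQO1, NRG1, NRP2, NUMB, P2RY6, PDGFD, PGD, PKP2, PKP3, PMEPA1, RELB, SAMD9, SCD, SLC2A1, SLC7A11, SMAD6, SMAD7, SPARC, TALDO1, TEK, TGFA, TGFBR3, TIMP2, TIMP3, TP53INP1, TRIB3, USP18, XAF1 and ZEB2. Of the 198 named genes called, 98 kept sign and call under all alternatives run. Without ECM young replicate 3, AXIN2, CXCL8, EGFL7, EGFR and HES4 passed the threshold. Depth limits what can be said of genes under 1 CPM.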
